A study of Mus musculus with 20 samples.

Results

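Conventional dendritic cells (cDC) were examined in single-cell RNA-sequencing (scRNA-seq) of unselected live cells from mice with B-cell leukemia, and 98 cDC were found among 97181 cells in 20 libraries. A barcode with at least 1500 unique molecular identifiers (UMIs, which count each captured RNA molecule once), 200 or more genes and a mitochondrial share of no more than 10% was taken as a cell. A cDC then had to carry at least 3 UMIs of H2-Ab1 (an MHC class II chain), at least 1 of Flt3 (the cytokine receptor on which dendritic cells depend) and at least 1 of Zbtb46, Xcr1, Clec9a or Cd209a. It had to carry no UMI of Siglech (plasmacytoid dendritic cells) or of Cd3d, Cd3e and Cd3g (T cells), and at most 1 UMI of Cd79a and Cd79b together (B cells). The cells were thus chosen by measured values, and the genes of this rule are given as description only. Monocytes were the 2473 other cells with at least 5 UMIs of Lyz2 and at least 1 of Csf1r that met the same exclusions.

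All mice were C57BL/6N and carried a human cDNA under the immunoglobulin heavy chain enhancer (Eµ), which drives expression in B cells. Libraries came from 5 spleens of Eµ-hPRMT5 mice (Eµ-PRMT5), 4 spleens and 3 lymph nodes of Eµ-hTCL1 mice (Eµ-TCL1), and 4 spleens and 4 lymph nodes of Eµ-hPRMT5/hTCL1 mice (Eµ-PRMT5/TCL1), taken when animals met early removal criteria. The lymph nodes came from 7 of the mice that also gave a spleen, and no library of mice without a transgene was analysed here. PRMT5 is an arginine methyltransferase and TCL1 an oncogene of chronic lymphocytic leukemia, and neither was driven in dendritic cells by design.

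Conventional dendritic cells take up antigen, cut it into peptides and present it on MHC molecules to T cells, and they carry it from tissue to lymph node when they mature. They fall into cDC1, which depend on IRF8 and BATF3 and excel at presenting the antigen of dead cells on MHC class I to CD8 T cells, and cDC2, which rely more on IRF4 and mainly prime CD4 T cells. XCR1, a chemokine receptor, and CLEC9A, a receptor for exposed actin of dead cells, mark cDC1. CD209A, a lectin, is found on part of cDC2 and on some monocyte-derived cells, and ZBTB46 is a transcription factor of the conventional lineage that plasmacytoid dendritic cells and monocytes largely lack.

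The genes that divide the cells into classes here are printed with the bases around their gene starts. The first division of the data rests on them. Each run covers 250 bases before and 50 bases after the start of the RefSeq gene on the mouse build GRCm38.p6, read 5′ to 3′ on the strand of the gene, and capitals mark a match to one of 4 short motifs, the ETS-IRF composite element, the AP-1 motif TGANTCA, the AP-1-IRF composite element (the AP-1 motif beside an IRF site) and the PU.1 motif GAGGAAGT, all searched on both strands. The motifs were chosen after the Zbtb46 run had been read, and a match is a description of letters and not of binding.
Zbtb46, chr2:181424339-181424638, minus strand: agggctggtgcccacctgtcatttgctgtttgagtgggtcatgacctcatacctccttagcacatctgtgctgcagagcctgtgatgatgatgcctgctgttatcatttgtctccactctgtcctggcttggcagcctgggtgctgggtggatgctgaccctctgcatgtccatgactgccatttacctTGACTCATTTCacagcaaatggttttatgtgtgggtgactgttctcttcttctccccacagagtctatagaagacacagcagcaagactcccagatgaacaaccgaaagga
Clec9a, chr6:129408612-129408911, plus strand: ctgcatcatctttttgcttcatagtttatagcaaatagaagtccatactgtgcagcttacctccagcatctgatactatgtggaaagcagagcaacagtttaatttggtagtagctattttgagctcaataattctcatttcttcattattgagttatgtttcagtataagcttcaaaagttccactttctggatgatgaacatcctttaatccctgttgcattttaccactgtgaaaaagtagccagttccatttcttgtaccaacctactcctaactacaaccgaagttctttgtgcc
Xcr1, chr9:123861980-123862279, minus strand: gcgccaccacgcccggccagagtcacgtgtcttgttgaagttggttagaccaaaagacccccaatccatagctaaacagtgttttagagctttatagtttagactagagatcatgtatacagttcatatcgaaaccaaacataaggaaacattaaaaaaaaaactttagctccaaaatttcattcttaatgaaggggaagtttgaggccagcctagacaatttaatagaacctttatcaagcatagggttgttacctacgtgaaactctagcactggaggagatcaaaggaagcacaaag
Cd209a, chr8:3748935-3749234, minus strand: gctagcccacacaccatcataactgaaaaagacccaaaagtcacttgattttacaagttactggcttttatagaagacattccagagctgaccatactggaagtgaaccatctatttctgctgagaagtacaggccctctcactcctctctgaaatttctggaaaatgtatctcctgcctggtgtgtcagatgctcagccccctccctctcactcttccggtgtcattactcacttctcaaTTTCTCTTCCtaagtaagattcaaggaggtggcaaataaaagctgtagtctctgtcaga
The Zbtb46 run held the AP-1-IRF element at base 190, counted from its 5′ end, on the other strand, and its AP-1 part lay inside it. The 250 bases before this gene start ended in a pyrimidine-rich stretch and AG, letters found before exons. An ATG followed within the next 50 bases. Whether transcription starts here or this is an inner exon, and thus whether the element lies in a promoter, was not tested. Of 32851 runs of this length at RefSeq gene starts, 41 (0.125%) held the AP-1-IRF element and 2565 (7.81%) held the AP-1 motif. The Cd209a run held the ETS-IRF element at base 242, also on the other strand, as did 892 of all runs (2.72%). The Clec9a and Xcr1 runs held none of the 4 motifs, and PU.1 letters were found in 1052 of all runs (3.20%) but in none of the 4 printed here.

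Before the results, the members were checked against their label. All 9 cDC markers were found among the 98 members, with a median of 100.9 UMIs per 10000 for the list, which holds genes of the rule. Siglech, Cd3d, Cd3e and Cd3g were at 0 because the rule asked for it. Of the other markers, Trbc1 (T cells), C1qa (macrophages), Sdc1 (plasma cells) and Ncr1 (NK cells) were also at 0 in every member, but other genes of their lists were seen. A UMI of the plasmacytoid list was found in 83 members, of the plasma cell list in 74, of the NK list in 45, from 2 of its 7 genes, of the neutrophil list in 30 and of the T-cell list in 12. The highest values were 12.7, 11.2, 24.6, 140.3 and 17.1 UMIs per 10000. The monocyte list was present at a median of 5.99 UMIs per 10000 and a highest value of 203.6, with 11 of its 12 genes seen, and the B-cell list at a median of 0.763, with all 10 genes seen. A set of 23 members went against the label by carrying at least 5 UMIs of Ly6c2 (18 members, a monocyte and progenitor antigen), any UMI of the B-cell genes Ms4a1 or Pax5 (4 members) or any UMI of Mpo (6 members, a granule enzyme of myeloid progenitors). This check was added after the members had been looked at. Prtn3, a granule protease of the same progenitors, was seen in 17 of these 23 members, with up to 136 UMIs in a cell, and in 5 of the other 75, with up to 5. Ly6c2 does not mark a single lineage here. At least 1 UMI of it was seen in 89.8% of monocytes, 80.6% of plasmacytoid dendritic cells and 65.4% of T cells. The 23 lay mostly in Eµ-PRMT5/TCL1 spleen 2 (8 of 12 members), Eµ-TCL1 spleen 1 (5 of 6) and Eµ-PRMT5 spleen 4 (3 of 3), and they were deeper than the rest, with a median of 19047 UMIs against 11181. The main values that rest on these members or libraries are given with and without them.

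**Figure D1:**
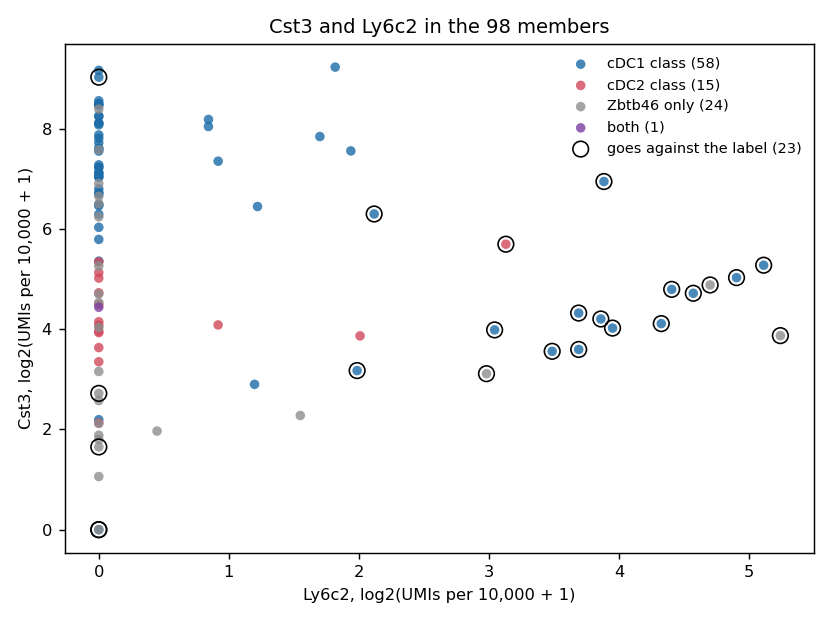
Each point is 1 of the 98 members, with Ly6c2 on the x axis and Cst3 on the y axis, both as log2(UMIs per 10000 + 1), colored by class, and rings mark the 23 members that go against the label. The ringed cells spread to the right, where 18 of them carry at least 5 UMIs of Ly6c2, and cDC1-class cells fill the top, with a median of 142 UMIs of Cst3 per cell against 11 in the cDC2 class.

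The share of cells that met the rule rose with depth. Libraries held between 784 and 8631 cells, members had a median of 11918.5 UMIs (1738 to 37700), and the share was 0.0314% at 1500 to 3000 UMIs, 0.0307% at 3000 to 6000, 0.126% at 6000 to 12000 and 0.331% above. Of the members, 50 had exactly 1 UMI of Flt3 and 34 had 1 UMI of the 4 class genes together, while 171 cells failed on Flt3 alone, 94 on the class genes alone and 4 on H2-Ab1 alone. Just outside the upper limits lay 3 cells with 1 UMI of Siglech and 3 with 2 UMIs of Cd79a and Cd79b, against 15 members with 1. Among T and B cells, which should lack these genes, a UMI of Flt3 was seen in 0.178% and 1.25%, of Clec9a in 0.0889% and 0.0278%, of Xcr1 in 0.0459% and 0.0195% and of Cd209a in 0.0201% and 0.00556% of cells, but a UMI of Zbtb46 in 3.23% and 2.88%. Among monocytes Flt3 was seen in 4.08%, Clec9a in 1.86% and Zbtb46 in 1.54%, and among the 62 plasmacytoid dendritic cells, which carry Flt3, Clec9a was seen in 33.9%. Whether these UMIs came from free RNA or from the cells was not tested. Barcodes of 15 members (15.3%) also belonged to a cell of another library, as did 11.8% of all cells, and no 2 members shared one.

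By their class genes, 58 members (59.2%) carried Xcr1 or Clec9a and no Cd209a and are called the cDC1 class, 15 (15.3%) carried Cd209a and neither Xcr1 nor Clec9a and are called the cDC2 class, 1 carried both, and 24 (24.5%) carried Zbtb46 only. Zbtb46 was also seen in 26 cells of the cDC1 class and 4 of the cDC2 class. Clec9a was seen in 57 members, Zbtb46 in 55, Xcr1 in 18 and Cd209a in 16, and 16 of the 18 cells with Xcr1 also held Clec9a. The cDC1 class was found in spleens of all genotypes, with 18 cells in Eµ-PRMT5, 15 in Eµ-TCL1 and 20 in Eµ-PRMT5/TCL1 libraries. The cDC2 class was thinner and uneven, with 9 of its 15 cells in Eµ-PRMT5 spleens, 5 of these in spleen 1, and 3 and 1 in the spleens of the other genotypes. The Zbtb46-only cells were found in 13 of the 17 libraries that held any member.

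The genes that cDC1 cells are known for were higher in the cDC1 class, and those of cDC2 cells in the cDC2 class. Because the classes were cut from the same cells, these values are a description and carry no test. Levels are counts per 1000000 UMIs (CPM) summed over a class, and ratios are differences of log2(CPM + 10). Irf8, the transcription factor on which cDC1 depend, had 834 CPM in the cDC1 class and 72.5 in the cDC2 class, and it was seen in 50 of 58 cells against 3 of 15. Because the cDC1 class was deeper (a median of 13313.5 against 9037 UMIs), cells with at least 5000 UMIs were also thinned to that depth, which left 52 and 11 cells and Irf8 in 76.5% and 14.9% of them. Batf3, the partner of IRF8, was seen in 31 of 58 cells and in 1 of 15, or 29.9% and 3.82% after thinning. Cst3 (cystatin C, an inhibitor of cathepsins) was seen in 57 of 58 and 15 of 15 cells, but at a median of 142 UMIs in the first and 11 in the second.

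Other cDC1 genes followed the same order. Naaa, a lysosomal amidase, was seen in 45 of 58 cells against 5 of 15 (60.8% and 16.4% thinned), and Ppt1, a lysosomal thioesterase, in 52 against 5 (71.7% and 29.9%). Wdfy4, which is needed for cross-presentation, was seen in 41 against 4 cells, Cd24a, a surface glycoprotein, in 53 against 4, Cadm1, an adhesion molecule, in 21 against 1 and Cd8a, the coreceptor chain that mouse spleen cDC1 carry, in 17 against 1. Rab7b, a small GTPase of late endosomes, was seen in 41 against 1, with 192 UMIs against 1, a ratio of CPM of 29.2 (95% counting interval 5.17 to 1158). Itgae, the integrin chain CD103, was seen in 13 cells of the cDC1 class and in 0 of 15, which allows a share of cells with a UMI of up to 20%. The receptors for nucleic acid and profilin that mark cDC1 were rare, with Tlr3 in 3, Tlr11 in 9 and Tlr12 in 8 cells of the cDC1 class. All intervals cover counting error only, and many UMIs can come from 1 cell.

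On the other side, Tmem176a and Tmem176b, a linked pair of membrane proteins, were seen in 14 and 13 of 15 cells of the cDC2 class against 14 and 8 of 58. Their levels were 339 against 35.5 CPM and 588 against 34.3 CPM, and after thinning 76.1% against 9.11% of cells carried Tmem176b. Sirpa, the receptor by which cDC2 are often sorted, was seen in 9 of 15 against 11 of 58 cells (49.0% and 10.4% thinned). Csf1r, the receptor for macrophage growth factor, was seen in 10 of 15 against 17 of 58. Klrd1, the NK receptor chain CD94, was seen in 11 of 15 against 15 of 58, at 564 against 42.8 CPM. Il1b, an inflammatory cytokine, was seen in 12 of 15 against 20 of 58 cells, at 1080 against 158 CPM. Zeb2 and Klf4, transcription factors of the cDC2 and monocyte side, were also higher in the cDC2 class, at 242 against 71.0 CPM and 129 against 28.2 CPM. Clec12a went the other way, with 34 of 58 cells of the cDC1 class and 2 of 15 of the cDC2 class. Several usual cDC2 genes were near the floor, with Irf4 in 7, Mgl2 in 2 and Cd4 in 0 of the 98 members, the last allowing a share of cells with a UMI of up to 3.06%. Such limits hold for cells with a UMI at this depth and not for cells that express the gene. Of the 15 cells of the cDC2 class, 5 also met the monocyte rule, as did 22 of the 98 members. Among the highest doublet scores of the Scrublet tool lay 6 of these 15 cells, 4 of the 58 of the cDC1 class and 14 of all 98 members. Whether they were doublets was not tested.

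Over the lists of known genes, all 11 cDC1 genes measured were over 2-fold higher in the cDC1 class with the same sign in both libraries that held at least 3 cells of each class (Eµ-PRMT5 spleens 1 and 5), and 5 of 7 cDC2 genes were lower. Of 3386 genes at 50 CPM or more in either class, 207 (6.11%) were higher and 277 (8.18%) lower by the same limits. The median ratio was 2.70 for the cDC1 list and -1.99 for the cDC2 list, beside -0.01 for all genes, and it moved to 3.37 and -2.65 without the members that go against the label. Of 12 MHC class II genes 1 was higher and 2 were lower by these limits, with a median of -0.53, or -0.06 without the members that go against the label. Immediate early and stress genes were lower in the cDC1 class in 7 of 16, with a median of -1.14, and cytokine and chemokine genes in 5 of 13, with a median of -1.61. Part of the latter came from few cells: Ccl4, a chemokine, had 1217 CPM in the cDC2 class, but 150 of its 151 UMIs lay in 1 cell. All these medians were taken over the genotypes together. Of the cDC2 class 9 of 15 cells came from Eµ-PRMT5 spleens, and of the cDC1 class 18 of 58. Class and genotype were not told apart in these medians.

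**Figure D2:**
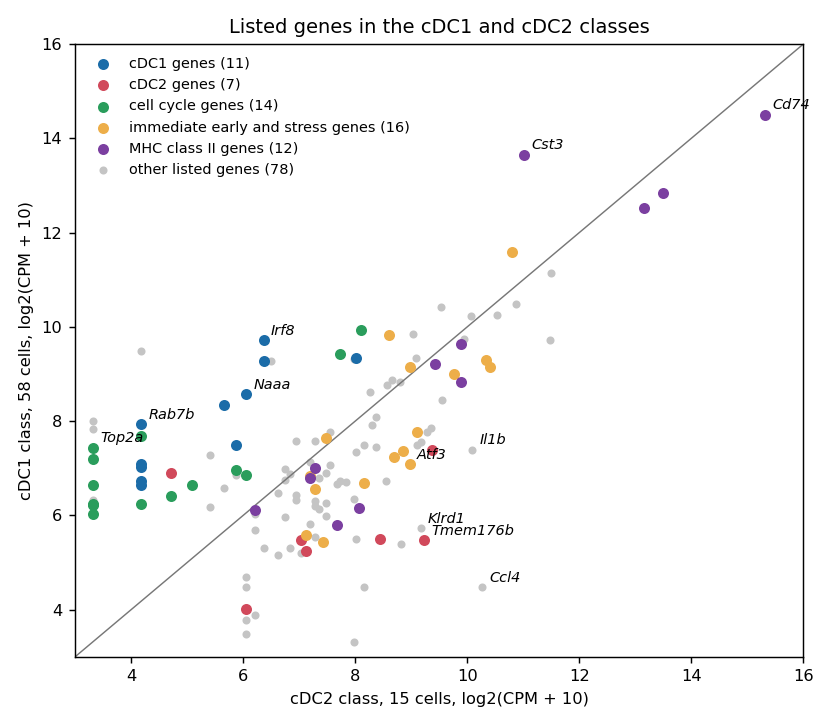
Each point is a gene of the lists, with its level in the 15 cells of the cDC2 class on the x axis and in the 58 cells of the cDC1 class on the y axis, both as log2(CPM + 10), colored by list, and the line marks equal levels. The cDC1 genes lie above the line (median ratio 2.70) and most cDC2 genes below it (median -1.99).

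Genes were ranked among those with the same sign in both libraries. The genes furthest toward the cDC1 class were partly genes of dividing cells, in the lists or outside them. Top2a (topoisomerase of mitosis, on the cell cycle list), Cks1b (a cyclin kinase subunit) and Smc4 (a condensin chain) had 133, 147 and 123 UMIs in the cDC1 class and 0 in the cDC2 class. This makes them at least 6.73-fold, 7.44-fold and 6.23-fold higher with the floor set at 3 counts over the class. Cd81, a tetraspanin, was at least 6.89-fold higher by the same floor. The cell cycle list, which holds Top2a, had a median ratio of 2.39 over 14 genes, or 1.63 with the 6 genes at 0 in a class set at their bound and 1.44 without the members that go against the label. Only 1 of the 14 was over 2-fold higher with the same sign in both libraries, beside 6.11% of all genes. A UMI of Mki67 or Top2a was seen in 18 of 58 cells of the cDC1 class, 0 of 15 of the cDC2 class and 10 of 24 Zbtb46-only cells. These 28 cells were concentrated where Ly6c2 and Prtn3 were, since 15 of them went against the label and 8 lay in Eµ-PRMT5/TCL1 spleen 2. Of the 42 cells of the cDC1 class that did not go against the label, 6 carried either gene. The part of these markers in the cell cycle difference was not tested.

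Ccl4 (-5.79) and Ccl3 (-4.65), both chemokines, lay furthest toward the cDC2 class over all members but not in both libraries, and each was seen in 2 of its 15 cells. Among genes with the same sign in both libraries, those furthest toward the cDC2 class, next to Tmem176b (-3.76), Klrd1 (-3.44) and Tmem176a (-2.94), were Tnfsf9 (4-1BB ligand, -3.67), Wfdc17 (-3.67), the receptor genes Klra17 (-3.45), Clec4a1 (-3.20) and Clec4a3 (-2.99), Ccl9 (a chemokine, -3.44), Cd7 (-3.24), Ms4a4c (-3.01) and Cyp4f18 (-2.96). Wfdc17 was seen in 14 of 15 cells of the cDC2 class and 14 of 58 of the cDC1 class, Ms4a4c in 13 and 10, and Ccl9 in 11 and 7. Klra17 rested on 14 UMIs against 1, with a ratio of CPM of 92.2 (14.02 to 3898), and Clec4a1 and Clec4a3 on 13 and 11 UMIs against 2.

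The 24 Zbtb46-only cells were mixed. Tmem176b was seen in 14 of 24 of them, Irf8 in 13 and Ccr7 in 12, and their median of Cst3 was 11.5 UMIs, near that of the cDC2 class. T and B cells also carried UMIs of Zbtb46, at the shares given above, and far fewer of Clec9a or Cd209a.

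Antigen presentation genes were present in nearly every member. H2-Aa, a chain of MHC class II that the rule did not use, was seen in 98 of 98 cells at a median of 82.5 UMIs, H2-Eb1 in 96 at a median of 63.5, and Cd74, the chain that guides MHC class II to the endosome, in 98 at a median of 291. H2-DMa and H2-DMb1, which load peptide, were seen in 94 and 90 members, H2-Oa, which restrains them, in 54, and Ciita, the master regulator of these genes, in 41. For MHC class I, B2m was seen in all 98, the immunoproteasome subunit Psmb8 in 95, the proteasome activator Psme1 in 93 and the peptide transporter Tap1 in 89. Members were chosen on H2-Ab1, a gene of the same locus, so that these shares follow in part from the rule.

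In each library with at least 10 cDC and 10 monocytes, cDC were set against the monocytes of the same library. These were Eµ-PRMT5 spleens 1 and 5 and Eµ-PRMT5/TCL1 spleens 2 and 4, with 14, 10, 12 and 12 cDC and 175, 23, 497 and 144 monocytes. Of 3441 genes, 35 (1.02%) were over 2-fold higher in cDC in all 4 libraries and 139 (4.04%) over 2-fold lower. Since the rules chose both cell types, no test was made. Without the members that go against the label, 38 genes were higher and 189 lower by the same limits. MHC class II genes were higher in cDC in most libraries, though H2-DMb2 was the 1 gene of 12 in the list that was over 2-fold higher in all 4. H2-Aa had 10420, 10713, 1920 and 11050 CPM in cDC in the order of the libraries above and 232, 1591, 1658 and 1138 CPM in monocytes. H2-Aa was thus far above the monocytes in 3 libraries and close to them in Eµ-PRMT5/TCL1 spleen 2, where 8 of the 12 members went against the label.

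The median log2 ratio was 3.01 for H2-Aa, 3.59 for H2-Eb1, 3.78 for H2-Oa and 3.26 for H2-DMb2, and 9 of 12 genes of the list were higher by any amount in all 4 libraries, as were 543 of all 3441 genes (15.8%), with a list median of 2.51 beside -0.05 over all genes. Without Eµ-PRMT5/TCL1 spleen 2 the list median was 2.65. Ctss and Lgmn, endosomal proteases that monocytes and macrophages also use, had medians of -0.97 and -0.37. Of 14 transcription factor genes of the dendritic cell list, 6 were higher by any amount in all 4 libraries and 2 lower, with a median of 0.52, and they ranged from Runx3 at 1.68 to Zeb2 at -1.90. On the cDC1 list, of which 5 of 10 genes were higher in all 4 (median 1.76), Batf3 was at 2.54 and Irf8 at 1.71. On the cDC2 list 0 of 10 genes were higher in all 4 and 5 were lower, 3 of them over 2-fold, with a median of -0.57. Maturation genes were higher in all 4 in 4 of 10 and lower in 1, with a median of 0.68. Itgax (the integrin chain CD11c, 2.26), Cd83 (a maturation antigen, 2.78) and Ccr7 (the receptor that leads cells to lymph nodes, 2.52) were higher in all 4. Among genes in no list, Cd7 (3.75), the purinergic and orphan receptors P2ry10 (3.44), P2ry14 (3.03) and Gpr171 (2.82), Ckb (brain creatine kinase, 3.32), Tbc1d4 (3.102), Ccnd1 (cyclin D1, 2.83) and Ece1 (2.80) stood highest. For 6 of the 12 genes that stood highest the monocytes of 1 library were at 0, and with these put at 3 counts P2ry10 came to 2.73, Tbc1d4 to 2.91, P2ry14 to 2.38, Ccnd1 to 2.12 and H2-DMb2 to 2.54.

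Monocyte and granule genes were lower in cDC. Chil3, a chitinase-like protein of monocytes, had 0 UMIs in the cDC of all 4 libraries, and its median of -6.93 came to -5.55 with these put at 3 counts. Elane, Prtn3 and Mpo, the granule enzymes of progenitors, had medians of -5.58, -5.35 and -5.27, or -4.16, -4.87 and -3.41 with cDC libraries at 0 put at 3 counts, and Prtn3 was at -1.73 in Eµ-PRMT5/TCL1 spleen 2. Other genes far on this side also had cDC libraries at 0, and at the same floor of 3 counts their medians were -4.27 for the lectin receptor Clec4e, -3.96 for Mgst1, -3.59 for Hp (haptoglobin), -3.56 for the coagulation factor F10, -3.11 for Gda, -2.64 for Vcan (versican), -2.57 for Dok3 and -2.19 for Slpi. On the log2(CPM + 10) scale with no floor, the median of Hp was -2.96 when Eµ-PRMT5 spleen 1 or 5 was left out and -5.15 without either of the other libraries, and that of Vcan was -3.55 without Eµ-PRMT5 spleen 1 or Eµ-PRMT5/TCL1 spleen 2 and -4.97 without either of the others. Leaving out 1 library gave Ccnd1 medians of 2.15 to 3.52. Ly6c2 was at -3.36, Cd14 at -3.01, Tlr2 at -2.32 and Cybb (the phagocyte oxidase) at -2.11, and all 7 monocyte markers measured were lower by any amount in the 4 libraries, as were 797 of all genes (23.2%). Pattern recognition genes had a median of -1.81 over 6 genes and cell cycle genes one of -0.72, with 9 of 15 lower in all 4 and none over 2-fold. Without Eµ-PRMT5/TCL1 spleen 2 the counts rose to 103 genes higher and 253 lower.

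**Figure D3:**
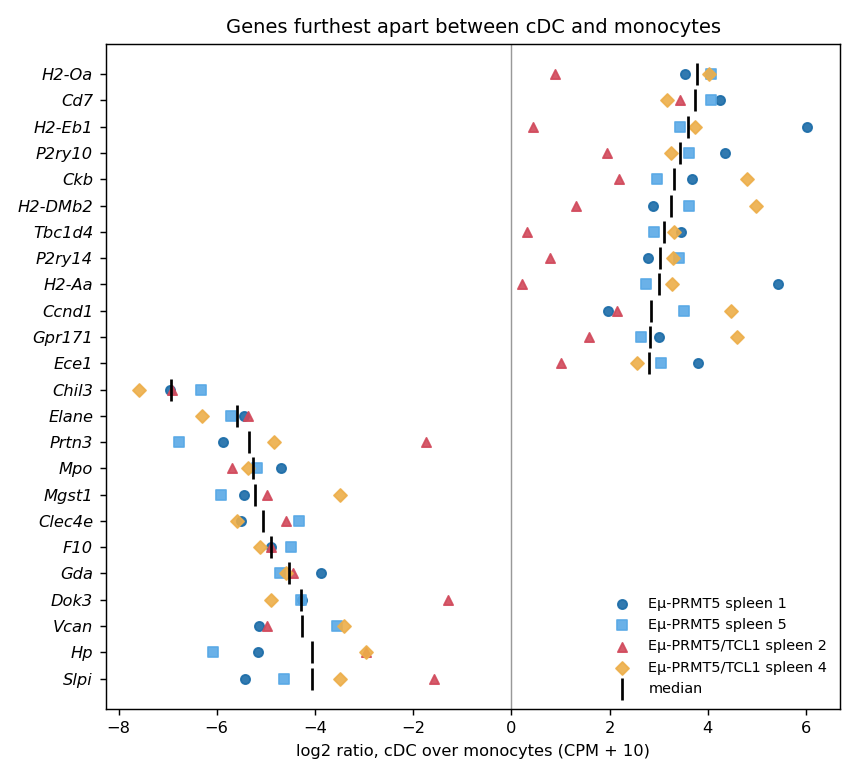
Each line is a gene, with the log2 ratio of CPM + 10 between cDC and monocytes of the same library on the x axis, 1 symbol for each of the 4 libraries and a bar for their median. The MHC class II genes H2-Oa, H2-Eb1 and H2-Aa lie far to the right in 3 libraries but near 0 in Eµ-PRMT5/TCL1 spleen 2 (0.88, 0.44 and 0.21), while Chil3, with 0 UMIs in the cDC of all 4, lies furthest left at places that the pseudocount sets (median -5.55 at a floor of 3 counts).

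Genes of mature, migrating dendritic cells were seen in few members together. Ccr7 was seen in 25 of 98 members (17.9% of the 84 cells thinned to 5000 UMIs), against 31 of 2473 monocytes of a similar median depth (11323 UMIs). It was not particular to cDC, since 11 of 62 plasmacytoid dendritic cells (17.7%), 47.5% of B cells and 67.9% of T cells also carried a UMI. Fscn1, the actin bundler of migrating dendritic cells, was seen in 3 members, Ccl22 in 3 and Ccl17 in 0 (up to 3.06% with a UMI). In 2 cells both Ccr7 and Fscn1 were seen, 1 in Eµ-PRMT5 spleen 3, with 35 and 73 UMIs among 4445, and 1 in Eµ-PRMT5/TCL1 spleen 4, with 9 and 16. Of the genes of costimulation, Cd83 was seen in 65, Cd86 in 64, Cd40 in 46, Cd274 (PD-L1) in 21 and Cd80 in 18 members, and the 12 genes of the costimulatory and checkpoint list ran from 0 members for Cd70 to 95 for Cd52, with Tnfrsf14 and Tnfsf4 in 5 each. Relb and Traf1 of the NF-κB pathway were seen in 67 and 76. Of the cytokines that direct T cells, Il12b was seen in 1 member with 6 UMIs, Il6 in 1, Il27 in 2, Tnf in 16 and Il10 and Il23a in 0, while Tgfb1 was seen in 90 and Cxcl16, a chemokine for T cells, in 61.

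The first comparison of genotypes asked whether the share of cDC among all cells differed. In Eµ-PRMT5 spleens 1 to 5 there were 14 cDC of 4642 cells, 2 of 1015, 6 of 5184, 3 of 4603 and 10 of 5977, and the share was 0.169% ± 0.0894 (SD, n = 5). In Eµ-TCL1 spleens 1 to 4 there were 6 of 6348, 9 of 6907, 4 of 4995 and 4 of 5723, a share of 0.0937% ± 0.0264 (SD, n = 4). In Eµ-PRMT5/TCL1 spleens 1 to 4 there were 4 of 5970, 12 of 3711, 0 of 4689 (which allows up to 0.0640%) and 12 of 5395, a share of 0.153% ± 0.147 (SD, n = 4). The 3 groups overlapped. Eµ-PRMT5 exceeded Eµ-TCL1 spleens by 0.0757 percentage points (exact two-sided permutation test over libraries, p = 0.143, Benjamini-Hochberg adjusted p = 0.190 over 4 comparisons), or by 0.0426 without Eµ-PRMT5 spleen 1, and Eµ-PRMT5/TCL1 exceeded Eµ-TCL1 spleens by 0.0595 (exact permutation p = 0.514). The latter came to 0.00278 points without Eµ-PRMT5/TCL1 spleen 2, 0.0364 without spleen 4 and 0.111 without spleen 3. As a share of the barcodes that met the limits on B- and T-cell UMIs, cDC were 2.36% in Eµ-PRMT5, 1.94% in Eµ-TCL1 and 2.06% in Eµ-PRMT5/TCL1 spleens (means over libraries, exact permutation p = 0.714 and 0.914 against Eµ-TCL1). Without the members that go against the label the 2 differences were 0.0468 (exact permutation p = 0.405) and 0.0207 points (exact permutation p = 0.743). In tissue, a smaller share of cDC and less RNA of the genes of the rule per cell cannot be told apart.

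In lymph nodes 12 of 32022 cells were cDC (0.0375%) and in spleens 86 of 65159 (0.132%). These sums pool mice and include the 5 Eµ-PRMT5 spleens, which had no node, so tissues were compared within mice. In Eµ-TCL1 nodes 1 to 3 there were 0 of 4109 (up to 0.0730%), 0 of 3345 (up to 0.0897%) and 2 of 4807, and in Eµ-PRMT5/TCL1 nodes 1 to 4 there were 1 of 784, 4 of 4685, 1 of 5661 and 4 of 8631. Within the 7 mice that gave both tissues the node was lower in 5, with a mean difference of -0.0841 percentage points, which did not pass the test (exact sign-flip permutation p = 0.0781, adjusted p = 0.190). It was -0.0520 without the mouse of Eµ-PRMT5/TCL1 spleen 2. As a share of the barcodes that met the limits on B- and T-cell UMIs it was -1.25 points (exact sign-flip permutation p = 0.109). With a stricter rule for cDC, the exact permutation p was 0.0469 before and 0.188 after adjustment, and without the members that go against the label the difference was -0.0425 points (exact permutation p = 0.0625). The difference between tissues was -0.0840 in Eµ-PRMT5/TCL1 and -0.0844 in Eµ-TCL1 mice (exact permutation test of their difference, p = 1, n = 4 and 3). Between genotypes, Eµ-PRMT5/TCL1 nodes had 0.0692% ± 0.0478 (SD, n = 4) and Eµ-TCL1 nodes 0.0139% ± 0.0240 (SD, n = 3), a difference of 0.0554 points (exact permutation p = 0.114, adjusted p = 0.190), or 0.05003 without the members that go against the label (exact permutation p = 0.143) and 0.0359 without Eµ-PRMT5/TCL1 node 1, with its 1 cDC of 784 cells. As a share of the barcodes that met the limits on B- and T-cell UMIs, cDC were 1.51% in Eµ-PRMT5/TCL1 and 0.256% in Eµ-TCL1 nodes (exact permutation p = 0.114). The smallest p that these designs allow is 0.00794 for 5 against 4 libraries, 0.0286 for 4 against 4 or 3, and 0.0156 for 7 mice. When each barcode was thinned to 1500 UMIs before the rule was applied, 13.9 cells met it on average over 1000 random draws. The mean difference of node from spleen was then -0.00713 points (exact permutation p = 0.328), Eµ-PRMT5 exceeded Eµ-TCL1 spleens by 0.0217 (exact permutation p = 0.310), the spleen difference of Eµ-PRMT5/TCL1 from Eµ-TCL1 turned to -0.00490 points (exact permutation p = 0.8), and the lymph node difference came to 0.00502.

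**Figure D4:**
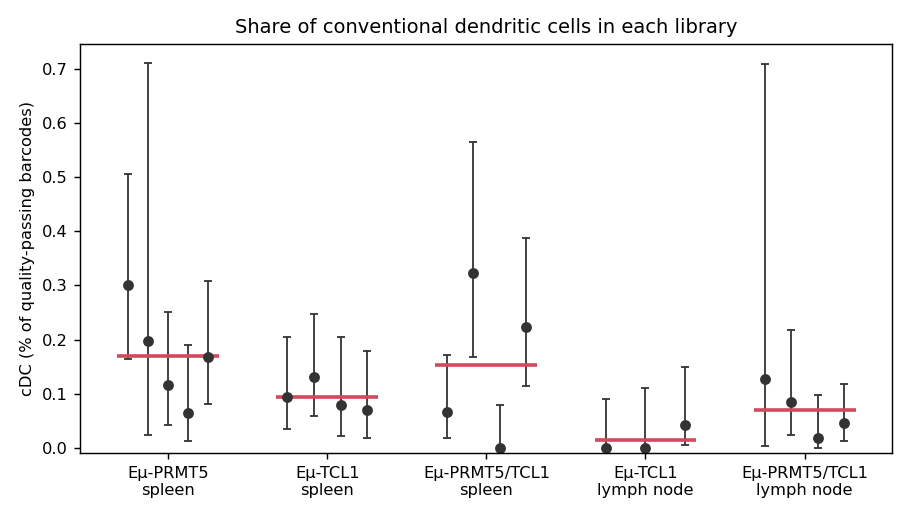
Each point is a library, with the share of cDC among its cells in percent on the y axis and the 5 groups on the x axis. Bars show the exact 95% counting interval of each library, and a line marks the mean of each group. Spleen libraries run from 0 to 0.323% and overlap between genotypes, and lymph node libraries run from 0 to 0.128%.

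Within the cDC, the share of cells with Xcr1 or Clec9a overlapped between the genotypes. Libraries with at least 3 cDC entered, since no comparison had enough libraries with 10. The share was 56.8% ± 16.6 (SD, n = 4) in Eµ-PRMT5, 55.6% ± 35.4 (SD, n = 4) in Eµ-TCL1 and 77.8% ± 19.2 (SD, n = 3) in Eµ-PRMT5/TCL1 spleens. The differences from Eµ-TCL1 were 1.23 points (exact permutation p = 1) and 22.2 points (exact permutation p = 0.371), and the first came to -2.06 without Eµ-PRMT5 spleen 4, -3.17 without spleen 5 and -8.96 without Eµ-TCL1 spleen 3 or 4. The second came to 11.1 without Eµ-PRMT5/TCL1 spleen 1, to 12.04 without Eµ-TCL1 spleen 3 or 4 and to 33.3 without Eµ-TCL1 spleen 2. The first was -10.1 with libraries of 1 cDC or more, and without the highest Scrublet doublet scores the 2 differences turned to -36.7 (exact permutation p = 0.0667, the smallest that 4 against 2 libraries can give) and -14.0 points (exact permutation p = 0.4). Without the members that go against the label the 2 differences were 9.63 (exact permutation p = 0.6) and 19.6 points (exact permutation p = 0.7), with 3 libraries a group and 0.1 as the smallest p. The difference between lymph nodes and spleens was -33.3 points in the 2 mice that had enough cDC in both, or -8.33 without those members, a design in which no p under 0.05 can be reached (exact permutation p = 1 for both). The share of cells with both Ccr7 and Fscn1 was not compared, since only 2 members had both.

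The next comparison asked which genes differed between genotypes within spleen cDC. UMIs were summed over the cDC of each library and tested with edgeR. Between Eµ-PRMT5 (libraries 1, 3, 4 and 5, 33 cDC) and Eµ-TCL1 (libraries 1 to 4, 23 cDC), no gene of 1026 passed an adjusted p of 0.05 with edgeR, 26 (2.53%) had an unadjusted p under 0.05, and the groups did not overlap for 27 (2.63%). With DESeq2 3 genes passed, Hspa1a, Fos and Nr4a1. These 3 are described here because of their values and were not chosen by a rule set beforehand. They belong to the list of immediate early and stress genes, which cells switch on soon after a stimulus.

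Hspa1a, an inducible heat shock protein of the HSP70 family, had 1118, 8781, 512 and 1388 CPM in Eµ-PRMT5 spleens 1, 3, 4 and 5 and 16.4, 0, 0 and 0 CPM in Eµ-TCL1 spleens 1 to 4. Every Eµ-PRMT5 library was above every Eµ-TCL1 library. Eµ-PRMT5/TCL1 spleens 1, 2 and 4 held 0, 0 and 3 UMIs of Hspa1a over 4, 12 and 12 cDC. The fitted log2 change of Eµ-PRMT5 from Eµ-TCL1 cDC was 8.50 (SE 1.34, edgeR adjusted p = 0.0808), a value that depends on the prior count. DESeq2 gave an adjusted p of 2.31e-05. In UMIs it was 812 against 2 over all cells, a ratio of CPM of 298.97 (95% counting interval 82.5 to 2473). Few cells carried it, namely 3 of 14, 1 of 6, 2 of 3 and 6 of 10 members, and the highest cell of each library held 87.1%, 100%, 96.9% and 76.1% of its UMIs. With the Hspa1a UMIs of these 4 cells taken off, and none taken off for Eµ-TCL1, the ratio was 22.5 (5.96 to 190), from 61 UMIs against 2. With edgeR the gene passed when Eµ-PRMT5 spleen 3 (adjusted p = 0.00461) or spleen 4 (0.0209) was left out. Over 17 alternative fits of the filtered genes its change lay between 6.95 and 11.29, with 3 of them under an adjusted p of 0.05 and the highest adjusted p at 0.985.

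Fos, a subunit of AP-1, had 765, 1307, 400 and 2890 CPM in the same Eµ-PRMT5 libraries and 278, 251, 50.9 and 94.5 CPM in the Eµ-TCL1 libraries. Its change was 2.87 (SE 0.66, edgeR adjusted p = 0.635, DESeq2 adjusted p = 0.0106). In Eµ-PRMT5 spleen 5 it was spread over 9 of 10 cells, whereas in spleen 3 a single cell held 66 of 67 UMIs. Nr4a1, an orphan nuclear receptor induced by antigen-receptor and stress signals, had 412, 878, 144 and 1048 CPM against 123, 11.4, 0 and 0 CPM. Its change was 3.68 (SE 0.88, edgeR adjusted p = 0.635, DESeq2 adjusted p = 0.0106). Over the alternative fits Fos lay between 2.17 and 3.51 and Nr4a1 between 3.35 and 6.32 (the highest without Eµ-TCL1 spleen 1), and the adjusted p of each was under 0.05 with DESeq2 and with no filter on low counts but in no other fit. For these genes, summed UMIs gave ratios of CPM of 6.52 and 10.9, or 3.19 and 5.66 with the gene's UMIs in the highest cell of each Eµ-PRMT5 library taken off. The groups did not overlap for either gene among these libraries. Eµ-PRMT5 spleen 2, left out for its 2 cDC, had 310 CPM of Hspa1a, 155 of Nr4a1 and 0 of Fos, the last below every Eµ-TCL1 library. Without the members that go against the label the changes of Hspa1a, Fos and Nr4a1 were 11.29, 3.51 and 6.16 (edgeR adjusted p = 0.166 for each). Under the minimum of 3 cDC, that fit also lost Eµ-PRMT5 spleen 4 (0 cDC left) and Eµ-TCL1 spleen 1 (1 left). The latter was the highest Eµ-TCL1 library for each of the 3 genes. The part of the members and that of the lost libraries were not told apart.

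Of the 17 genes of the immediate early and stress list, 12 were measured and all 12 had a higher value in Eµ-PRMT5 cDC, as had 533 of all 1026 genes (51.9%). An unadjusted p under 0.05 was reached by 8 of the 12, beside 26 of all genes (2.53%), and the median change of the 12 was 1.33 beside 0.02 over all genes. The 12 include the 3 genes that DESeq2 called, for whose values the list is taken up. A few cells can carry the UMIs of several of these genes. The 12 are thus not separate observations, and these counts are no test of the list. Leaving out the members that go against the label, 10 of 12 were higher, beside 470 of all 958 genes of that fit, 7 had an unadjusted p under 0.05, beside 62, and the median was 1.80. With library totals in place of TMM factors all 12 were again higher, with a median of 1.70. None of the 12 passed the adjusted threshold with edgeR. The cDC2 class, in which this list was higher than in the cDC1 class, was uneven between the libraries compared. It had 5, 0, 0 and 3 cells in Eµ-PRMT5 spleens 1, 3, 4 and 5 and 0, 0, 2 and 1 in Eµ-TCL1 spleens 1 to 4. The class mix and the genotype were not told apart for these genes. Atf3, a stress transcription factor, had a change of 2.59 (SE 0.90), Jun, the partner of FOS, one of 1.69, the HSP40 chaperone gene Dnajb1 one of 1.48, the constitutive chaperone gene Hspa8 one of 1.17, Hsp90aa1 one of 1.16, Ier2 one of 0.67 and Junb one of 0.05, in the edgeR fit with adjusted p above 0.05 for each. The same genes were compared in other cells of the same libraries. Hspa1a overlapped between the groups in each of them, with 46.5 to 422 CPM in Eµ-PRMT5 against 15.2 to 63.8 in Eµ-TCL1 B cells, 20.01 to 199 against 12.4 to 30.2 in T cells and 2.92 to 75.5 against 0 to 131 in monocytes. Fos overlapped in B cells (98.1 to 1160 against 21.6 to 151 CPM) and monocytes (93.6 to 517 against 97.1 to 255) but not in T cells (87.0 to 295 against 17.9 to 40.3). Nr4a1 overlapped in monocytes (61.4 to 596 against 33.5 to 131 CPM) but not in B cells (195 to 1816 against 81.1 to 130) or T cells (102 to 274 against 25.8 to 97.8). Eµ-PRMT5 spleen 2, which is not in these ranges, had 993, 398 and 518 CPM of Hspa1a in B cells, T cells and monocytes, 103, 69.6 and 706 of Fos and 301, 179 and 308 of Nr4a1.

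**Figure D5:**
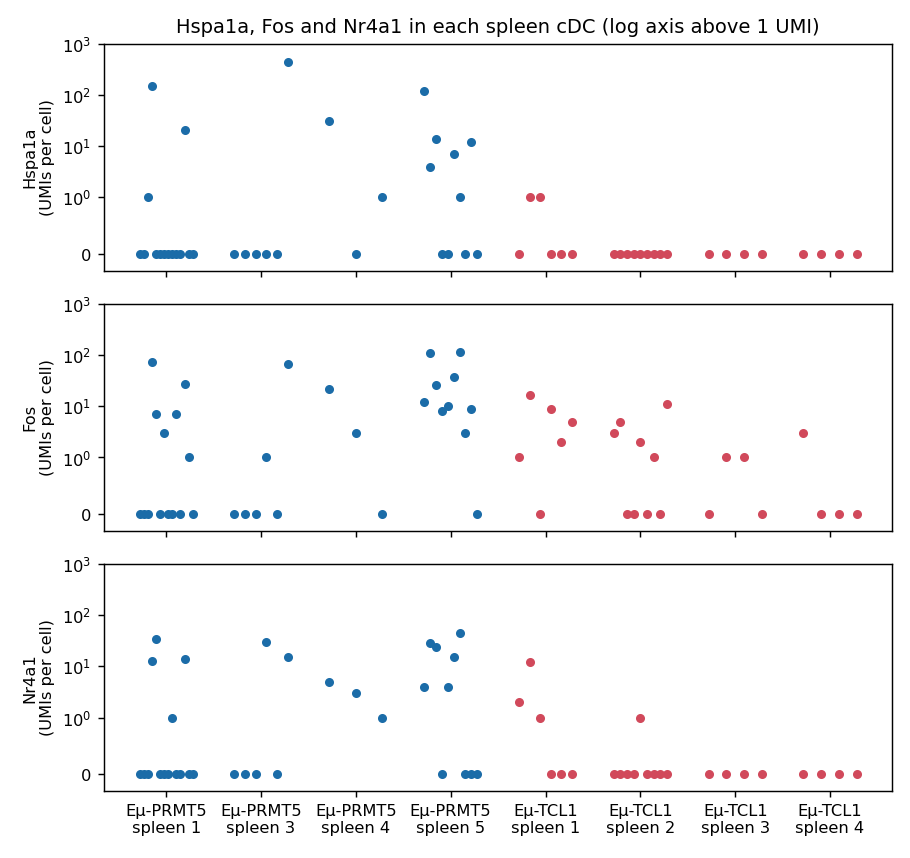
Each point is a cDC, with UMIs of Hspa1a, Fos and Nr4a1 per cell on a symmetric log y axis in the 3 panels and the spleen libraries of Eµ-PRMT5 and Eµ-TCL1 mice on the x axis. In each Eµ-PRMT5 library most Hspa1a comes from 1 cell (450 UMIs in spleen 3), while Eµ-TCL1 cells hold at most 1.

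The other lists had smaller medians in the same comparison. Among MHC class II genes 3 of 9 had higher and 6 lower values, beside 48.1% lower over all genes, with a median of -0.15. The cDC1 list had 5 of 7 higher and a median of 0.17, and MHC class I genes were 6 of 12 in each direction with a median of 0.01. Maturation genes had a median of 0.51 over 6 genes, with 4 higher. Beside the stress list, the monocyte markers were the one list with a gene at an unadjusted p under 0.05 (1 of 2 measured) in the fit of all members. With the members that go against the label left out, MHC class II genes had 3 of 9 under 0.05, beside 62 of all 958 genes, with 7 of 9 lower and a median of -0.30. The cDC2, maturation, costimulatory, cDC marker and monocyte marker lists had 1 gene each under 0.05. Both monocyte markers measured were higher there, with a median of 1.18.

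Between Eµ-PRMT5/TCL1 (libraries 1, 2 and 4, 28 cDC) and Eµ-TCL1 spleens (23 cDC), no gene of 1468 passed with edgeR, 14 (0.954%) had an unadjusted p under 0.05 and 35 (2.38%) did not overlap. With DESeq2 1 gene passed, Mt1 (metallothionein 1, which binds zinc and responds to metals and glucocorticoids), and it is named because of this value. Its mean was 101 CPM in Eµ-PRMT5/TCL1 and 1056 CPM in Eµ-TCL1 cDC after TMM scaling, from 6, 34 and 4 UMIs against 42, 63, 68 and 8. The change was -3.31 (SE 0.79, edgeR adjusted p = 0.999) and -3.33 with DESeq2 (adjusted p = 0.0237), and without the members that go against the label it was -4.11 (edgeR adjusted p = 0.297). Cell cycle genes had higher values in 8 of 8, beside 686 of all genes (46.7%), with a median of 0.41 beside -0.03 over all genes. MHC class II genes had lower values in 8 of 9, beside 782 of all genes (53.3%), with a median of -0.45. Immediate early and stress genes had higher values in 4 of 7, with a median of 0.38 and 0 genes at an unadjusted p under 0.05. None of these passed the edgeR test. In Eµ-PRMT5/TCL1 spleens 1, 2 and 4, Hspa1a had 0, 0 and 3 UMIs, Fos 4, 17 and 98 and Nr4a1 0, 2 and 99. These were among 78862, 265119 and 112486 UMIs, and 78 of the 99 of Nr4a1 lay in 1 cell. With the members that go against the label left out, cell cycle genes had higher values in 5 of 5, beside 483 of all 1087 genes, with a median of 1.10, and MHC class II genes lower values in 8 of 9, beside 604, with a median of -0.70. This fit, which also gave the -4.11 of Mt1, lost Eµ-TCL1 spleen 1 as well, where 1 cDC was left. In the Eµ-PRMT5/TCL1 libraries 9 of 28 members went against the label, 8 of them in Eµ-PRMT5/TCL1 spleen 2, against 5 of 23 in Eµ-TCL1 spleens.

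The 12 lymph node members were described cell by cell where numbers allowed. Both members of Eµ-TCL1 node 3 met the monocyte rule and held no Irf8, whereas the 10 of Eµ-PRMT5/TCL1 nodes comprised 5 cells of the cDC1 class, 1 of the cDC2 class and 4 with Zbtb46 only. Over all 12, Cst3 was seen in 12 at a median of 90 UMIs, Wdfy4 in 10, Id2, a factor that cDC1 need, in 9, Irf8 in 7, Ccr7 and Sirpa in 1 each, and Ly6c2 in 0, which allows a share of cells with a UMI of up to 25%. In spleens 30 of the 86 members carried Ly6c2 and 56 did not.

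Between tissues, 2 mice had at least 3 cDC in both, Eµ-PRMT5/TCL1 nodes 2 and 4 with 8 cDC against spleens 1 and 2 of the same animals with 16. With the mouse as a block no gene of 984 passed with edgeR, 15 (1.52%) had an unadjusted p under 0.05, and DESeq2 called none. Genes of the cDC1 list had higher values in the node in 7 of 7, beside 494 of all genes (50.2%, with 49.8% lower), with a median change of 1.48 beside 0.00 over all genes, and MHC class II genes in 7 of 8, with a median of 0.64. With the members that go against the label left out, the 2 lists had 7 of 7 with a median of 1.20 and 8 of 8 with a median of 0.69, beside 420 of all 831 genes. With all members, nodes and spleens overlapped for every gene of these lists, but did not for 264 of all 984 genes. Irf8 had 53 and 35 UMIs in the nodes, of 53091 and 23857 in all. It had 93 and 37 in the spleens, of 78862 and 265119 (change 1.48, SE 1.05). As a share of these totals it was lower in the node in the mouse of spleen 1 and higher in the mouse of spleen 2. Lyz2, the lysozyme of myeloid cells, had 3 and 2 UMIs in the nodes and 15 and 366 in the spleens (change -2.96, SE 0.71, edgeR adjusted p = 1.00). Most of the spleen cells of this comparison came from Eµ-PRMT5/TCL1 spleen 2, with its 8 members that go against the label. Without all such members 1 gene passed with edgeR, Marcksl1, lower in the node (-3.72, adjusted p = 0.00457), and it too is named because of its value. The interaction of tissue with cell type, which asks whether cDC and monocytes of these mice differed in their change, gave 0 of 2701 genes with edgeR, 97 (3.59%) with an unadjusted p under 0.05 and none with DESeq2.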

How the data were processed

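Per the labels, libraries were made with the Chromium 3′ v2 chemistry and processed against GRCm38, with Cell Ranger 2.0.1 and Seurat 2.2.1 named there, whereas the matrix headers name Cell Ranger 3.1.0. The authors deposited unfiltered matrices of raw UMI counts for 31053 genes per library, not normalized. From these counts, cells and classes were called by the limits given in the report, and libraries (1 mouse each within a tissue) were the replicates. UMIs summed per library were tested with edgeR 4.0.16 (TMM, filterByExpr, quasi-likelihood, Benjamini-Hochberg), with DESeq2 1.42.0 as an alternative. Shares were tested with exact permutation tests that went through every arrangement (numpy 2.4.6), and scipy 1.17.1 gave their counting intervals. The permutation tests were tried on cases with known answers. The gene tests were tried on simulated counts with 1 dispersion (spread between libraries) for all genes. That dispersion was smaller than those fitted here (0.159, 0.242 and 0.134). Genes with most UMIs in 1 cell were not simulated, so how the tests fare on them was not tested. A minimum of 10 cDC per library had been planned. It left no comparison, and 3 was used after the counts were seen. Scrublet (scanpy 1.11.5) called no member a doublet and marked under 0.5% of cells in most libraries, so leaving out the highest scores was added. These scores, at an expected rate of 0.8% per 1000 cells, took in 14 of the 98 members. Of the 14, 7 lay in Eµ-TCL1 spleens. Whether they were doublets was not tested. The members and lists were chosen with earlier results of these data known. Named genes were the listed genes and the 12 furthest in each direction at 50 CPM or more. Genes singled out after their values were seen are said to be so. The same replicate number in different genotypes marks different mice, and tissues were paired by the mouse in the titles. Ifi30 and Clec7a were not measured under these symbols. One marker gene is not reported here. Depth per cell limits every share of cells, since 1 UMI decides membership in many.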

Additional observations from a re-analysis of the deposited data

Results flagged for a closer look

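Among 38 groups of 4 to 10 libraries whose values in cDC were examined, 4 held a library whose gap to its neighbor was a large part of the range of its group (Dixon's test at 95%). Chance gives about 1 in 20 groups where values are normally distributed and groups were not chosen by them. Here Hspa1a, Fos, Nr4a1 and Mt1 were examined because DESeq2 had called them, and other genes for their distance from monocytes. The 4 of 38 can thus not be set against that rate. Hspa1a stood apart in Eµ-PRMT5 spleen 3, with 8781 CPM beside a group median of 1253, and 450 of 450 UMIs there lay in 1 cell. Hspa1a also stood apart in Eµ-TCL1 spleen 1, with 16.4 CPM from 2 UMIs beside a median of 0. Since the other 3 libraries of that group were at 0, any UMI there would have stood apart, and this case tests nothing. Nr4a1 stood apart in the same library, with 123 CPM beside a median of 5.71, and 5 of its 6 members went against the label. Mt1 stood apart in Eµ-PRMT5 spleen 4, with 1056 CPM beside a median of 160, and all 3 of its members went against the label. The part of those members in these values was not tested.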

How the results depend on the processing

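No share of cDC passed 0.05 after adjustment under any alternative run, and the genes named as called changed with tool and filter. Thinned to 1500 UMIs, with the mean of 1000 random draws, the cDC share of Eµ-PRMT5/TCL1 minus that of Eµ-TCL1 spleens turned to -0.00490. The mean was taken after single draws had been seen to differ in sign for the lymph nodes. For the share of cells with Xcr1 or Clec9a, Eµ-PRMT5 minus Eµ-TCL1 spleens lay between -8.96 and 12.3 points when single libraries were left out (-2.06 and -3.17 among them), at -36.7 without the highest Scrublet scores and at -10.1 with libraries of 1 cDC or more, and Eµ-PRMT5/TCL1 minus Eµ-TCL1 spleens was at -14.0 without the highest scores. The cause was not tested. Counts of genes called came to 3 with DESeq2 and 27 with no filter on low counts (Eµ-PRMT5), to 0 to 1 when single libraries were left out, to 1 and 12 (Eµ-PRMT5/TCL1), to 3 with no filter and 1 without members that go against the label (tissue), and to 7 with no filter (interaction). No filter tests genes with a UMI in any library, 11203 in place of 1026 for Eµ-PRMT5. Against monocytes, 38 to 103 genes were higher and 148 to 253 lower with 1 library left out (the highest without Eµ-PRMT5/TCL1 spleen 2), and 56 higher with a pseudocount of 1 CPM.

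With a replicate block (the shared numbers, which mark different mice in different genotypes) the differences in cDC share were 0.0762 (exact permutation p = 0.25), 0.0595 (p = 0.5, exact) and 0.0630 (p = 0.5, exact), those in the share with Xcr1 or Clec9a 7.94 and 12.04 points, and 0 genes were called by edgeR in both spleen comparisons. The numbers' shares correlated at 0.530, 0.567 and -0.925 over 4, 4 and 3 numbers. With no replicate block between tissues, the exact permutation p of the share was 0.0793 and 0 genes were called. Fits with at least 20 cDC per library, with the cDC2 class only, of lymph node genotypes and of shares of Ccr7 and Fscn1 were not run, for lack of cells. Counts of 1 to 3 UMIs in small classes limit all gene-level values.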

Other observations

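A single Zbtb46-only cell of Eµ-PRMT5/TCL1 spleen 2 held most UMIs of several interferon-stimulated genes among all 98 members, and it is described because of these values. With 24169 UMIs in all, it carried 145 UMIs of Rsad2 (an antiviral enzyme; 87.3% of those in all members), 74 of Ifit1 (90.2%) and 36 of Ifit3 (97.3%), but 77 of Isg15 (49.0%) and 19 of Irf7 (15.7%), and Ifitm3 was highest in another member (5.90% of its 1575 UMIs). It also carried 233 of the chemokine gene Cxcl10 (66.8%), 110 of Cxcl9 (57.3%) and 298 of Ccl5 (68.2%), and 16 of Ido1 (94.1%), the enzyme that breaks down tryptophan. The next highest member had 8 UMIs of Rsad2, 5 of Ifit1 and 31 of Cxcl10. It held 57 UMIs of H2-Ab1, 1 each of Flt3 and Zbtb46, 6 of Cst3 and none of Irf8, and it did not go against the label. Whether it is a cDC was not tested beyond these genes.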
